A study of Mus musculus with 6 samples.

Results

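The genes described here encode proteins of the lysosome, the acidic compartment in which cells break down proteins, sugars and lipids. They were 40 genes chosen by symbol, comprising cathepsins and other proteases, glycosidases, a pair of sulfatases, lipid hydrolases, membrane proteins and subunits of the proton pump, and every probe set whose annotation carried one of these symbols was used. Of the 40 genes, 38 were matched to 66 probe sets, among 12393 genes with a probe set of a single symbol, and Cd63 and Arsb were not matched and were not analysed here. Mesenchymal cells came from the urogenital sinus, the fetal tissue that gives rise to the prostate, of male CD-1 mouse fetuses at gestation day 17. Epithelial cells had been discarded and the mesenchymal cells were used at first passage. One group of 3 samples was treated with 100 nM E2 (17β-estradiol) for 4 days and the control group of 3 samples with the vehicle, 0.05% ethanol. The medium of all 6 samples held DHT at 690 pM, an androgen that aromatase does not convert to E2, and was free of estrogen for the 3 days before treatment. RNA was hybridized to Affymetrix mouse genome arrays, 1 array per sample. Whether the samples of a group came from separate cell preparations is not given in the sources used here, so the p-values cover the spread among these 6 samples only, and that spread may be technical.

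Lysosomal enzymes are made in the endoplasmic reticulum, many of them as precursors. Most are tagged with mannose 6-phosphate and carried to the lysosome by receptors that recognize this tag. The proton pump of the lysosomal membrane keeps the lumen acidic, which the enzymes need for activity. Tfeb, a transcription factor, acts on many genes of this group through a short promoter sequence, the CLEAR element. Ctsd, which encodes the aspartic protease cathepsin D, is known as a gene that estrogen induces in human breast cancer cells.

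The promoters are shown because the CLEAR element is known from many genes of this group. Promoters of 300 bases, 250 before and 50 after the transcription start, were taken from RefSeq (mouse build GRCm38.p6) for 35 of the 40 genes. The core TCACGTGA, which reads the same on both strands, was present in the promoters of 7 of these 35 genes (20%), against 304 of all 27025 genes (1.12%). The E-box CACGTG, which lies within the core and was searched for on both strands, was present in 13 of the 35 (37.1%) and in 8.09% of all genes. The estrogen response element, GGTCA and TGACC with any 3 bases between them on either strand, was in 0 of the 35 promoters and in 0.074% of all genes. These are matches of letters, and binding was not measured. In the 6 stretches that follow, each of 100 bases, 5′ to 3′ on the strand of the gene and ending before the start site, capitals mark the CLEAR core, which occurs at 2 places in Gla.
Ctsd: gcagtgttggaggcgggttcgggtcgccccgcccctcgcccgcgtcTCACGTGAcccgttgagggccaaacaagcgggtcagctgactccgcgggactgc
Ctsa: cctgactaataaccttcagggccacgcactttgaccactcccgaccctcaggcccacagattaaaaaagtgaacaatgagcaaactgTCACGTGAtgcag
Gla: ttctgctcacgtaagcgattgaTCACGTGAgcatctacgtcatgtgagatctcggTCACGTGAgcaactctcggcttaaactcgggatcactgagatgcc
Cln3: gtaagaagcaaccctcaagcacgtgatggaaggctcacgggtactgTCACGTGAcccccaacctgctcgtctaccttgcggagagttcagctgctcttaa
Mcoln1: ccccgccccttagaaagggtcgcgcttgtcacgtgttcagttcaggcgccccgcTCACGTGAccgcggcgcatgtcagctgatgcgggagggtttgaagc
Atp6v1a: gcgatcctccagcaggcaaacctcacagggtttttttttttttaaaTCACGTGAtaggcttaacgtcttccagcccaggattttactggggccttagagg
The 7th gene with the core, Atp6v0d1, has it across the start site and is not shown. A further core of Ctsa lies just after its start site, at position 5, and is not shown either. Lamp1 lacks the core but has 4 E-boxes close to its start, in capitals here.
Lamp1: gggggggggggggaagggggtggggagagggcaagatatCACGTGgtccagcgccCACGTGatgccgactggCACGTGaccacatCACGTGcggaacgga
The stretches lie at chr7:142387873-142387972 (minus strand) for Ctsd, chr2:164833673-164833772 (plus strand) for Ctsa, chrX:134601156-134601255 (minus strand) for Gla, chr7:126583305-126583404 (minus strand) for Cln3, chr8:3500419-3500518 (plus strand) for Mcoln1, chr16:44139338-44139437 (minus strand) for Atp6v1a and chr8:13159061-13159160 (plus strand) for Lamp1. Signal from the arrays was available for 33 of the 35 genes. The 7 genes with the core had a median log2 difference of -0.13 between E2 and control (range -0.25 to 0.36), and the 26 without it had a median of -0.16 (range -0.75 to 0.76).

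No lysosomal gene passed the test between 100 nM E2 and control, but most had a slightly lower signal with E2. E2 was compared with control by limma, a linear model with a moderated variance, on log2 values of arrays scaled to a common median, and p-values were adjusted by the Benjamini-Hochberg method over the 14223 probe sets that averaged 10 fluorescence units or more in E2 or in control. Each gene was read by its brightest probe set, and each difference given is the E2 mean minus the control mean of log2 signal. All 38 genes reached 10 units in both groups and were tested. At an adjusted p under 0.05 from limma, 0 of the 38 were higher and 0 were lower, where 0.57% of all 8246 genes tested were higher and 0.34% were lower. The smallest adjusted p among the 38 was 0.239, for Ctss. At an unadjusted p under 0.05, 6 of the 38 were lower (15.8%, against 4.74% of all genes) and 0 were higher (against 3.59%). With a 1.5-fold difference added to that limit, only Ctss was lower, where 1.92% of all genes were, and 0 were higher, where 2.01% of all genes were. The count of 6 was 1 without control replicate 3, where 3.39% of all genes were lower, so that the lysosomal genes did not stand above all genes there. It was 3 without control replicate 1 (3.78% of all genes) and 3 without control replicate 2 (3.55%). The log2 difference was negative in 33 of the 38 (86.8%, against 56.1% of all genes), with a median of -0.15, a ratio of E2 to control of 0.903, against a median of -0.03 over all genes. Without E2 replicate 2 these medians were -0.09 and 0.02. In 10 of the 38 (26.3%) all E2 arrays lay below all control arrays, as they did in 8.55% of all genes, and in 0 all E2 arrays lay above, as in 5.98%. In bulk RNA, fewer cells of a type and less RNA per cell cannot be told apart.

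**Figure D1:**
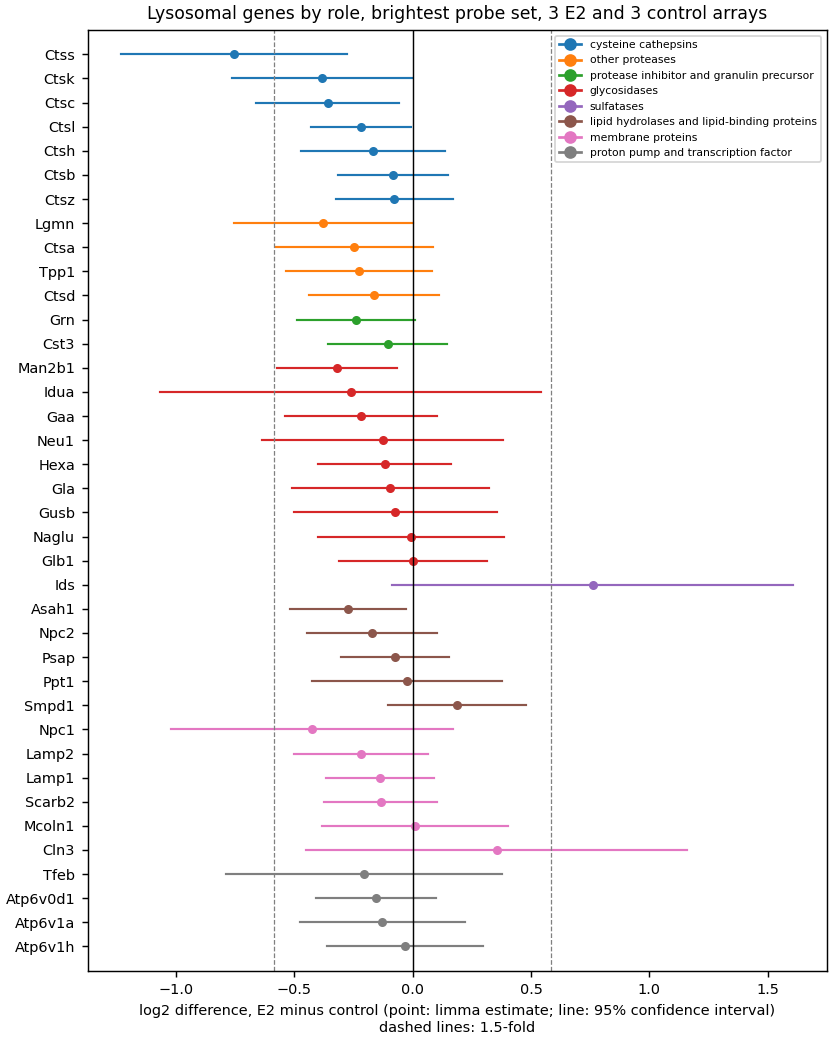
Log2 difference, E2 minus control, of the 38 lysosomal genes by their brightest probe set, colored by role, with the limma estimate as a point and its 95% confidence interval as a line; dashed lines mark a 1.5-fold difference. Points of 33 genes lie left of 0, and the intervals of 28 genes lie wholly between the dashed lines.

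Of the 38 differences, those of Ctss (-0.75) and Ids (0.76) were past 1.5-fold. For 28 of the 38 genes the 95% confidence interval of the single gene lay within a 1.5-fold difference in either direction, 0.585 on the log2 scale. The interval reached below a 1.5-fold lower signal for Ctss, Ctsk, Ctsc, Lgmn, Idua, Neu1, Npc1 and Tfeb, and above a 1.5-fold higher signal for Ids and Cln3. Brighter genes were measured more closely, with a median standard error of 0.14 over all probe sets at 100 units or above and of 0.21 over all probe sets tested. Of the 25 lysosomal genes that reached 100 units in E2 or in control, 24 had a negative difference, with a median of -0.17, and Smpd1 was the exception. Of these 25, 5 were lower at an unadjusted p under 0.05, as were 6.9% of all genes at that level, and 9 had all E2 arrays below all control arrays, as did 11.7%. Over all 2549 genes at that level 63% were negative, and the median was -0.05. Of the 13 dimmer lysosomal genes, 9 were negative, with a median of -0.07.

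Among the 7 cysteine cathepsins, proteases that use a cysteine for catalysis, all 7 differences were negative, from -0.75 to -0.08. Over all genes 56.1% were negative. At an unadjusted p under 0.05 from limma 4 of the 7 were lower, as were 4.74% of all genes, and 0 were called. Ctss, cathepsin S, which trims the invariant chain of MHC class II in antigen-presenting cells, had 24.5, 19.4 and 20.1 units in E2 replicates 1 to 3, against 32.2, 36.7 and 38.8 units in control replicates 1 to 3. Its groups did not overlap, and the E2 arrays lay closer together than the gap between the groups. The log2 difference was -0.75 (SE 0.22, 95% interval -1.23 to -0.28, limma adjusted p = 0.239), the lowest of the 38 genes. Ctsk, cathepsin K, which degrades collagen and is best known from osteoclasts, had 72.4, 105 and 118 units in E2 and 127, 120 and 131 units in control. All E2 arrays lay below all control arrays, narrowly for E2 replicate 3, and replicate 1 was the farthest from the rest (log2 difference -0.39, SE 0.18, limma adjusted p = 0.625). Without E2 replicate 1 the difference was -0.18. Ctsc, cathepsin C, which activates serine proteases of leukocyte granules, had 208, 191 and 181 units in E2, against 208, 259 and 283 units in control. E2 replicate 1 and control replicate 1 were level, so the groups overlapped, and the log2 difference was -0.36 (SE 0.14, limma adjusted p = 0.519).

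Ctsl, cathepsin L, a broad endopeptidase, had 1182, 1157 and 1197 units in E2 and 1310, 1357 and 1450 units in control. The E2 arrays, with an SD of 20.1 units (n = 3), lay below the control arrays, with a log2 difference of -0.22 (SE 0.10, limma adjusted p = 0.613). Ctsh, cathepsin H, an aminopeptidase, had 118, 98.3 and 120 units in E2 and 127, 123 and 125 units in control, again with no overlap and with a difference of -0.17 (SE 0.14), which was -0.076 without E2 replicate 2. Ctsb, cathepsin B, was read by 4 probe sets. Its brightest had means of 955 ± 27.1 units in E2 and 1015 ± 104 units in control (SD, n = 3 each), a difference of -0.08 (SE 0.11), and the others had differences of 0.01, -0.01 and -0.09. Ctsz, cathepsin Z, a carboxypeptidase, gave -0.08 (SE 0.11) by its brightest probe set, which is of a type that can also bind transcripts of other genes, and 0.06 and -0.29 by the others. The probe set that gave -0.29 has the same limit.

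**Figure D2:**
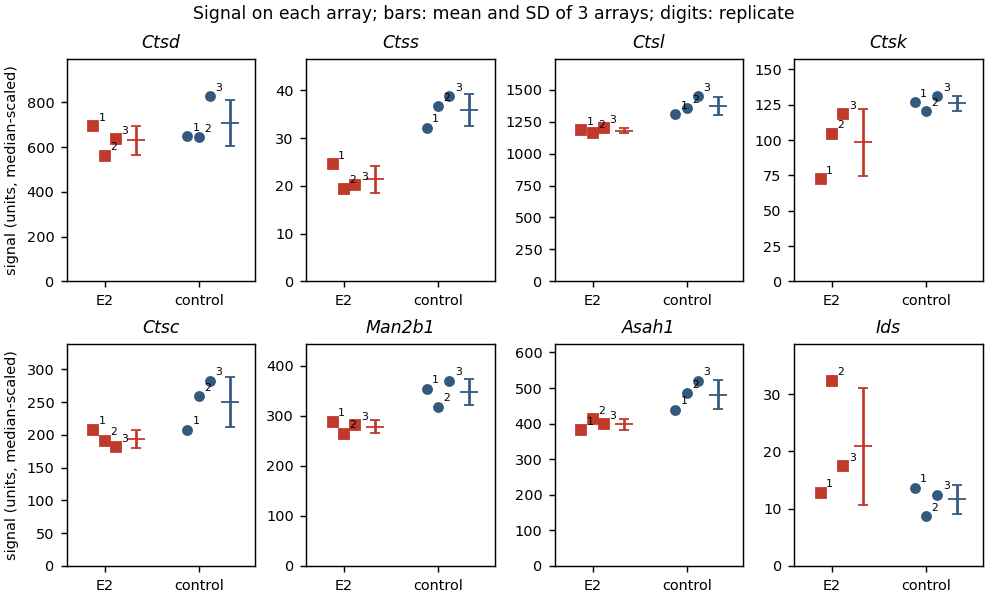
Median-scaled signal in fluorescence units of 8 lysosomal genes on each array, E2 (squares) left of control (circles), with digits for the replicate and bars for the mean and SD of 3 arrays; each axis starts at 0. The Ctss arrays lie at 19.4 to 24.5 units in E2 and 32.2 to 38.8 units in control, whereas the groups of Ctsd and of Ids overlap.

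Ctsd, the gene induced by estrogen in breast cancer cells, had 693, 560 and 634 units in E2 replicates 1 to 3 and 649, 645 and 827 units in control replicates 1 to 3. The groups overlapped, and control replicate 3 stood above the other 5 arrays. The log2 difference was -0.16 (SE 0.13, limma adjusted p = 0.81), and its 95% interval ran from -0.44 to 0.11. With control replicate 3 and E2 replicate 2 both left out, the difference was 0.035, and it was -0.046 without control replicate 3 alone and -0.083 without E2 replicate 2 alone. In the same samples Pgr, the progesterone receptor, a known estrogen target, had means of 26.2 units in E2 and 5.57 units in control (limma adjusted p = 0.02). Its control signal was below the 10 units of the filter, which it passed by its E2 mean only. The other proteases outside the cysteine cathepsins also had negative differences. Lgmn, legumain, which cuts after asparagine and processes cathepsins, had 141, 160 and 108 units in E2 and 172, 145 and 214 units in control (log2 difference -0.38, SE 0.18, limma adjusted p = 0.628). Ctsa, a carboxypeptidase that also protects Glb1 and Neu1 in a complex, had means of 401 ± 92.8 units in E2 and 467 ± 27.5 units in control (SD, n = 3 each). E2 replicate 2, at 297 units, was the low array, and E2 replicates 1 and 3 lay at 476 and 431 units. Tpp1, tripeptidyl peptidase 1, showed the same low array, with 226 units in E2 replicate 2, and its difference was -0.23 (SE 0.14) by the brighter and -0.43 (SE 0.25) by the dimmer probe set.

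Cst3 encodes cystatin C, a secreted inhibitor of cysteine cathepsins, and Grn encodes progranulin, a secreted growth factor that is cut into granulins in the lysosome. Cst3 had means of 584 ± 51.7 units in E2 and 628 ± 55.9 units in control (SD, n = 3 each), a log2 difference of -0.11 (SE 0.12). The brightest of 3 probe sets of Grn had 514, 546 and 443 units in E2 and 565, 586 and 619 units in control. This probe set, which can also bind transcripts of other genes, did not overlap between the groups (log2 difference -0.24, SE 0.12, limma adjusted p = 0.641), and its difference was -0.15 without E2 replicate 3. A second Grn probe set of the same type gave -0.25 (SE 0.12), and the probe set without that limit gave -0.09 (SE 0.12).

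Of the 9 glycosidases, which remove sugars from glycoproteins, glycolipids and glycosaminoglycans, 8 had negative differences, and the median was -0.12. Man2b1, lysosomal alpha-mannosidase, had 288, 264 and 281 units in E2 and 354, 318 and 370 units in control. All E2 arrays lay below all control arrays, and the E2 arrays had an SD of 12.5 units (log2 difference -0.32, SE 0.12, limma adjusted p = 0.461). A dimmer Man2b1 probe set had means of 12.1 units in E2 and 17.2 units in control, with a difference of -0.50 (SE 0.34). Hexa, the alpha subunit of beta-hexosaminidase, had means of 524 units in E2 and 563 units in control, with E2 replicate 2 low at 422 units. Gaa, which degrades glycogen, had differences of -0.22 (SE 0.15) and -0.17 (SE 0.14) by its 2 probe sets, the brighter of which can also bind transcripts of other genes. Glb1, beta-galactosidase, had means of 96.9 units in E2 and 96.7 units in control (log2 difference 0.003, SE 0.15). Naglu, a heparan sulfate enzyme, had means of 65.5 units in E2 and 65.3 units in control. Its difference in mean log2 signal, -0.007 (SE 0.18), counts as negative, although both genes were level between the groups. Gusb, Gla and Neu1, which encode beta-glucuronidase, alpha-galactosidase and a sialidase, gave -0.07 (SE 0.20), -0.09 (SE 0.19) and -0.13 (SE 0.24). Dimmer probe sets gave -0.04 (SE 0.24) for Gusb and -1.20 (SE 0.76) for Gla, where E2 replicate 2 was low at 1.58 units. Idua, which acts on dermatan and heparan sulfate, had means of 14.2 units in E2 and 18.2 units in control, close to the filter, and replicate 2 was the high control array at 28.8 units. Its dimmer probe set gave -0.86 (SE 0.74).

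Ids, the sulfatase that starts the breakdown of heparan and dermatan sulfate, had the highest difference of the 38 genes. Its brightest probe set had 12.8, 32.4 and 17.5 units in E2 and 13.7, 8.72 and 12.5 units in control. E2 replicate 1 lay among the control arrays, and the high mean came mostly from E2 replicate 2 (log2 difference 0.76, SE 0.39, limma adjusted p = 0.678), without which the difference was 0.39. Both other Ids probe sets that were tested had negative differences, -0.23 and -0.16, and 2 more were below 10 units in both groups and were not tested.

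Of 5 genes of lysosomal lipid breakdown and transport, 4 had negative differences. Asah1, acid ceramidase, had 382, 413 and 399 units in E2 and 439, 486 and 521 units in control. The E2 arrays lay below the control arrays, with a log2 difference of -0.27 (SE 0.11, limma adjusted p = 0.575). Smpd1, acid sphingomyelinase, which makes the ceramide that Asah1 degrades, had 142, 144 and 154 units in E2 and 126, 142 and 119 units in control. Its difference was 0.19 (SE 0.14, 95% interval -0.10 to 0.48, limma adjusted p = 0.79), and E2 replicate 1 overlapped control replicate 2 narrowly. Npc2, which hands cholesterol to Npc1 for export, had 1145, 1211 and 1089 units in E2 and 1105, 1234 and 1588 units in control, with replicate 3 the high control array. Its probe sets gave -0.17 (SE 0.13) and -0.20 (SE 0.11). Psap, the precursor of the saposins that activate lipid hydrolases, had means of 856 ± 78.1 units in E2 and 900 ± 19.2 units in control (SD, n = 3 each), and its probe sets gave -0.08 and -0.07. Ppt1, palmitoyl-protein thioesterase, gave -0.02 (SE 0.19) and -0.19 (SE 0.15).

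Of the membrane proteins, Lamp1, an abundant glycoprotein of the lysosomal membrane, had 638, 639 and 615 units in E2 and 679, 655 and 753 units in control. The groups did not overlap, by a margin smaller than the spread of the control arrays, and the log2 difference was -0.14 (SE 0.11, limma adjusted p = 0.807), or -0.079 without control replicate 3. Scarb2, which carries glucocerebrosidase to the lysosome, had 303, 321 and 321 units in E2 and 349, 336 and 353 units in control by its brighter probe set. These groups did not overlap (log2 difference -0.14, SE 0.11, limma adjusted p = 0.82), whereas the dimmer probe set gave -0.01 (SE 0.13). Lamp2, which takes part in chaperone-mediated autophagy, had differences of -0.22, -0.21, -0.01 and 0.03 by its 4 probe sets, and the one with 0.03 can also bind transcripts of other genes. Npc1, the cholesterol exporter, had 26.5, 14.9 and 31.5 units in E2 and 28.7, 31.2 and 33.6 units in control (log2 difference -0.42, SE 0.28, limma adjusted p = 0.753). E2 replicate 2 was the low array, the other 2 E2 arrays lay close to the control arrays, and the difference was -0.11 without E2 replicate 2 and -0.65 without E2 replicate 3. Cln3, a membrane protein mutated in juvenile neuronal ceroid lipofuscinosis in humans, had 18.4, 19.2 and 10.7 units in E2 and 14.8, 10.4 and 11.7 units in control, an overlap near the filter (log2 difference 0.36, SE 0.38, limma adjusted p = 0.873), with a difference of 0.21 to 0.63 when single E2 arrays were left out. Mcoln1, a calcium channel of the lysosomal membrane, had differences of 0.01 (SE 0.18) and -0.20 (SE 0.17) by its 2 probe sets, the brighter of which, with 0.01, can also bind transcripts of other genes.

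The proton pump subunit Atp6v0d1 had 297, 256 and 293 units in E2 and 306, 313 and 321 units in control, with no overlap (log2 difference -0.16, SE 0.12, limma adjusted p = 0.801), and its difference was -0.089 without E2 replicate 2. The catalytic subunit Atp6v1a had a difference of -0.13 (SE 0.16) by its brighter probe set and -0.42 (SE 0.22) by the dimmer, and the subunit Atp6v1h had -0.03 (SE 0.15). Tfeb itself was dim, with 20.1, 22.1 and 15.4 units in E2 and 23.4, 18.9 and 23.5 units in control, which overlapped, and a difference of -0.20 (SE 0.27). Of the 17 lysosomal genes with more than 1 tested probe set, 12 had the same sign in all of them, and Ctsb, Ctsz, Ids, Lamp2 and Mcoln1 did not.

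**Figure D3:**
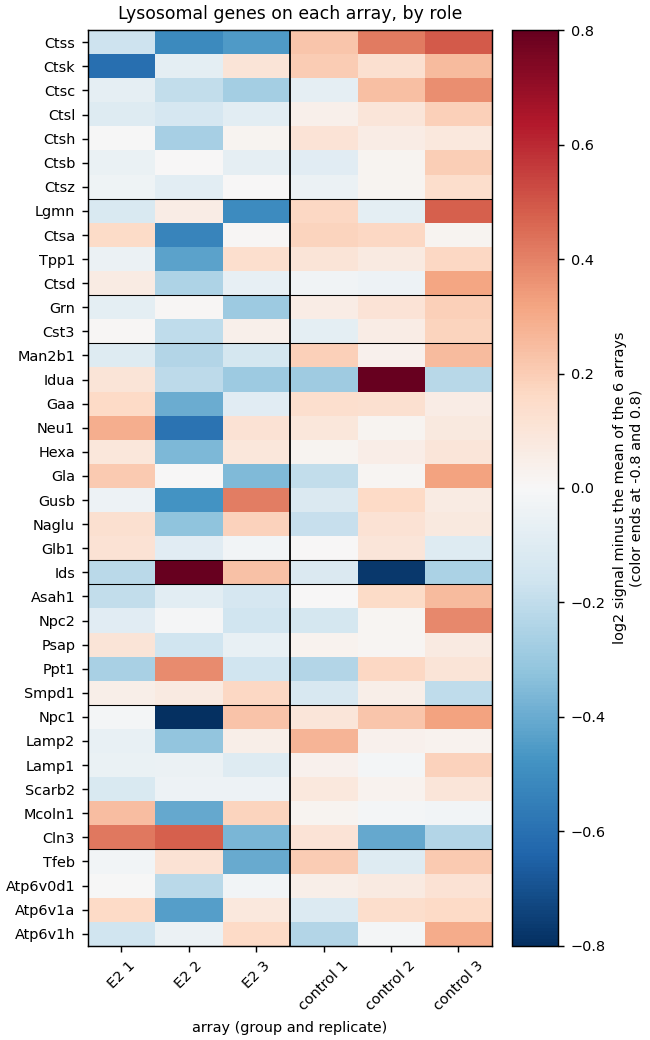
Log2 signal of the 38 lysosomal genes on each of the 6 arrays minus the mean over the arrays, with E2 arrays left of the line and control arrays right of it, and rows ordered by role and then by difference. E2 replicate 2 is the lowest array for 20 genes (52.6%) and control replicate 3 is the highest for 22 genes (57.9%). These shares are 49.3% and 31.3% of all genes at 100 units or above, and 35.1% and 22.3% of all genes tested.

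The lowest of the 6 arrays was E2 replicate 2 for 20 of the 38 genes (52.6%), and the highest was control replicate 3 for 22 of them (57.9%). Over all 2549 genes at 100 units or above, E2 replicate 2 was the lowest array for 49.3% and control replicate 3 the highest for 31.3%. Over all genes tested these shares were 35.1% and 22.3%. Of the 38 genes, 13 were under 100 units, so neither set matches them in brightness. Their share for E2 replicate 2 was near that of the brighter genes and above that of all genes tested. Their share for control replicate 3 was above both. The median of the 38 genes, relative to their mean over the arrays, was -0.03, -0.18 and -0.03 on the log2 scale in E2 replicates 1 to 3, and 0.03, 0.06 and 0.15 in control replicates 1 to 3. Over those 2549 genes the same value was 0.04, -0.14 and 0.03 in E2 and 0.00, 0.00 and 0.07 in control. These 2 arrays also had the lowest deposited medians, 13.7 units in E2 replicate 2 and 14.01 units in control replicate 3, where the other 4 had 17.1 to 21.8 units. Their highest 18S ribosomal RNA control probe set had 288 units in E2 replicate 2 and 281 units in control replicate 3, against 22.8 to 44.7 units on the other arrays. Without both arrays the median difference of the lysosomal genes was -0.058, against 0.03 over all genes, and 4 genes were lower at an unadjusted p under 0.05, as were 4.26% of all genes. The part of these arrays' state in the lower signal was not tested beyond leaving them out.

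The signal scale set how many of these small differences stood apart. When each array was scaled on its probe sets of at least 100 units, 3 lysosomal genes were lower at an unadjusted p under 0.05 from limma, as were 3.99% of all genes, and 6 had all E2 arrays below all control arrays, where 7.05% of all genes did. With the values as deposited these counts were 0 and 2, where 0.873% and 1.75% of all genes were. The median difference of the lysosomal genes was -0.10 with that scaling and -0.09 as deposited, against 0.01 and 0.03 over all genes.

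**Figure D4:**
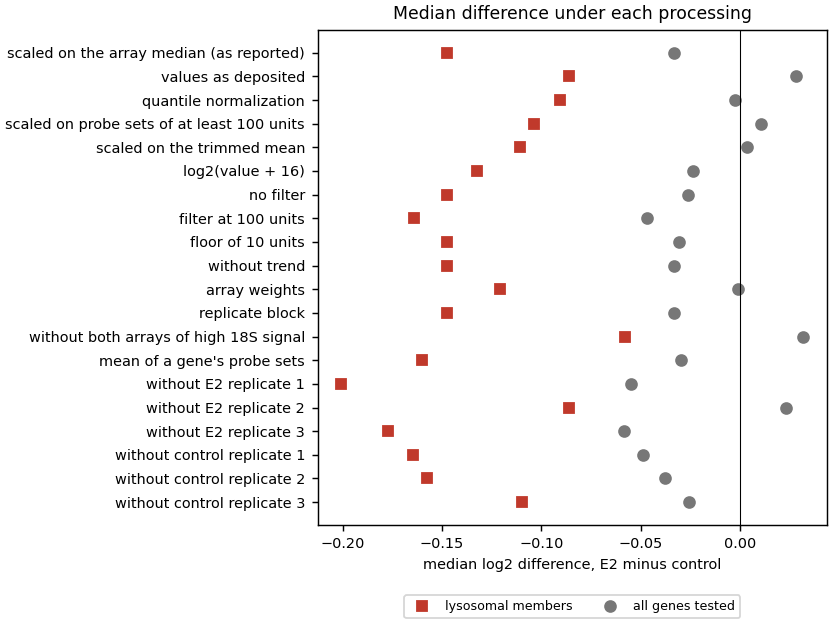
Median log2 difference, E2 minus control, of the lysosomal genes (squares) and of all genes tested (circles) under each way of processing the data. The lysosomal median lies between -0.20 and -0.058 and left of the median of all genes in every row.

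Further genes of the lysosome, from lists made for this comparison, were called by limma in 0 cases, where 0.57% of all genes were called higher and 0.34% lower. Over all genes tested 56.1% had a negative difference and 4.74% were lower at an unadjusted p under 0.05. At 100 units or above 63% were negative. Of 32 other tested lysosome genes, 22 had a negative difference (68.8%), with a median of -0.07, and 3 were lower at an unadjusted p under 0.05. These 3 were Ifi30, a thiol reductase of antigen processing (-0.36), the dipeptidyl peptidase Dpp7 (-0.38) and Ctsf, cathepsin F (-0.42), and the next by p was the acetyltransferase Hgsnat with 0.31. Of 22 genes of delivery to lysosomes and the TFEB family, 18 were negative, with a median of -0.13. Igf2r, the larger of the receptors for mannose 6-phosphate, had means of 180 units in E2 and 219 units in control and was the 1 gene with an unadjusted p under 0.05 (log2 difference -0.29, SE 0.13). Vps35 of the retromer had -0.28, the TFEB relative Mitf had -0.32, and Lamtor3, which helps to place mTORC1 on the lysosome, had -0.20. Gga1, a sorting adaptor of the trans-Golgi network, had all E2 arrays above all control arrays, with means of 36.7 units in E2 and 29.9 units in control (0.31, SE 0.21). Of 13 other proton pump subunits 10 were negative, with a median of -0.07 and 0 at an unadjusted p under 0.05, and Atp6ap2, an accessory subunit, had -0.26. Of 21 autophagy genes 18 were negative, with a median of -0.13 and 0 at an unadjusted p under 0.05, and the smallest p was that of Gabarapl2 (-0.20), which takes part in the growth of autophagosomes. Of 5 tested cathepsin inhibitors 2 were lower at an unadjusted p under 0.05. They were Cst6, the secreted cystatin M, with means of 11.3 units in E2 and 26.9 units in control (log2 difference -1.33, SE 0.36, limma adjusted p = 0.163), and the serine protease inhibitor Serpina3n (-0.38).

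Markers of macrophages, which are rich in lysosomes and in Ctss, were measured beside these genes. Of 17 markers 16 were tested, and all 16 had a negative difference, with a median of -0.41, where 56.1% of all genes were negative. Of the 16, 2 (Cx3cr1 and Aif1) entered by their control mean only, a route that favors a negative difference. At an adjusted p under 0.05 limma called 0 of them. At an unadjusted p under 0.05, 3 were lower, as were 4.74% of all genes. The strongest was C1qb, a complement subunit made by macrophages, with means of 20.1 units in E2 and 48.4 units in control (log2 difference -1.24, SE 0.28, limma adjusted p = 0.063), and C1qa and Tyrobp had -0.84 and -0.49. The summed signal of the 17 markers was 680 to 801 units on the E2 arrays and 755 to 1213 units on the control arrays, highest in control replicate 3, and Itgam was the 1 marker below 10 units in both groups. The part of these cells in the lysosomal signal was not tested. Of the 5 osteoclast markers, Calcr, Itgb3 and Oscar were below 10 units in both groups, and the tested Acp5 and Mmp9 had -0.18 and 0.26. Of 5 endothelial markers 3 were below 10 units in both groups, and Kdr and Emcn had -0.03 and 0.00. Of the 7 epithelial markers, Epcam, Cdh1 and Krt5 were below 10 units in both groups. The 4 tested had positive differences, with a median of 1.10. Of these, 3 (Krt19, Krt8 and Krt14) entered by their E2 mean only, a route that favors a positive difference. The other, Krt18, was called (0.87, limma adjusted p = 0.0416). The mesenchyme markers were bright in both groups, with summed signals of 14204 to 14922 units in E2 and 14742 to 16651 units in control. Of these 8, limma called 0 (0 at an unadjusted p under 0.05), with a median difference of -0.10. The difference was negative in 7 of the 8 (87.5%), where 56.1% of all genes were negative. In 2 of them, Dcn and Lum, all E2 arrays lay below all control arrays, as in 8.55% of all genes.

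**Figure D5:**
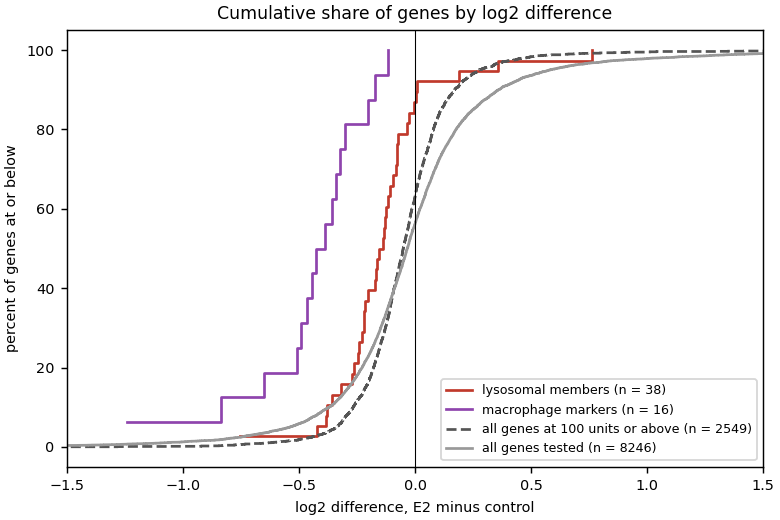
Cumulative percent of genes at or below each log2 difference, E2 minus control, for 38 lysosomal genes, 16 macrophage markers, all 2549 genes at 100 units or above (dashed) and all 8246 genes tested; the axis stops at -1.5 and 1.5. The lysosomal curve crosses 0 at 86.8% and the curve of all genes at 56.1%. All 16 macrophage markers lie left of 0, and 2 of these passed the filter by their control mean only.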

How the data were processed

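The deposited values are intensity values on a linear scale, a signal for each probe set on each array, which the authors obtained from their scans with the Affymetrix operating and console programs. Program versions, signal algorithm and any scaling are not stated in the labels or the methods. Of 22690 probe sets, 64 control probe sets were left out, and each array was scaled to a common median (deposited medians 13.7 to 21.8 units). Probe sets that averaged 10 units or more as deposited in E2 or control were kept, and log2 values were fitted in R 4.3.3 with limma 3.58.1 (lmFit, eBayes with a variance trend, two-sided, Benjamini-Hochberg, threshold 0.05). Symbols came from the platform annotation, updated by gene identifier. A gene was read by its brightest probe set. Given with every array's value were Ctsd, genes with a p under 0.05, genes whose groups did not overlap, and the 3 highest and 3 lowest differences, and array values of other genes, and Gga1, were chosen after their values were seen. The members and lists were chosen with earlier results of these data known. The labels do not say whether replicate numbers pair the samples, and the samples were fitted as unpaired. Signals were compared between probe sets only to choose the brightest of a gene and to split genes at 100 units, and in the summed marker signals bright probe sets weigh most. The number of arrays limits the precision.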

Additional observations from a re-analysis of the deposited data

How the results depend on the processing

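The 16 genes given in full kept their direction and stayed uncalled under the 19 alternatives in 299 of 300 values, and the exception was Ctsd, at 0.035 when both arrays with high 18S signal were left out. Much of this count was fixed beforehand. Except for Ctsd, these genes were chosen by their values here, and leaving out arrays cannot reverse groups that do not overlap. A change of filter, variance trend or block left the differences themselves as they were. Leaving out 1 array moved the differences of Atp6v0d1, Cln3, Ctsd, Ctsh, Ctsk, Grn, Ids, Lamp1 and Npc1 by over 1.5 times, as given with each gene. The signal scale moved some differences too. With quantile normalization Ctsl had -0.12 in place of -0.22, Ctsd -0.08 in place of -0.16 and Lamp1 -0.08 in place of -0.14, whereas Ctss had -0.74 in place of -0.75. The smallest adjusted p was 0.121 (limma, Ctss, probe sets averaged per gene). The filter at 100 units gave no value for 4 of them. The count of genes lower at an unadjusted p under 0.05 was 6, where 4.74% of all genes were lower. It was 0 with the values as deposited (0.873% of all genes) and 3 with scaling on probe sets of at least 100 units (3.99%). Without a variance trend it was 1 (4.03%, a share that the lysosomal genes did not exceed). With single arrays left out it ran from 1 to 7, and the share of all genes ran from 3.39% to 5.56%. It was 3 without control replicate 1 (3.78%), 3 without control replicate 2 (3.55%) and 1 without control replicate 3 (3.39%). The count of genes higher at that limit was 0, where 3.59% of all genes were higher. It was 1 with a floor of 10 units (3.47% of all genes). With single arrays left out it was 0 to 1 (1 without E2 replicate 1, where 2.71% of all genes were higher). The number with all E2 arrays below all control arrays was 10, where 8.55% of all genes were so placed. It was 2 as deposited (1.75% of all genes), 6 with quantile normalization (7.58%) and 6 with scaling on probe sets of at least 100 units (7.05%). The median of -0.15 was -0.058 when both of these arrays were left out, and with single arrays left out it ran from -0.20 to -0.09, and was -0.09 without E2 replicate 2. The cause of these moves was not tested. With the replicate number as a block, 5 genes were lower at an unadjusted p under 0.05, as were 4.18% of all genes, and 0 were called. Same-numbered samples had correlations of 0.01, -0.05 and -0.06 between their deviations, and differently numbered samples had -0.01 to 0.07. With 3 arrays per group these values cannot decide whether the numbers pair the samples, and the labels do not say. Genes near 10 units, such as Ids, Cln3 and Idua, had 95% intervals that reached past a 1.5-fold difference.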
